A study of Mus musculus with 18 samples.

Results

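Ido1, the enzyme that opens the breakdown of tryptophan to kynurenine, was examined together with 4 further enzymes of the kynurenine route (Afmid, Kmo, Kynu and Haao), the aryl hydrocarbon receptor gene Ahr and 4 of its target genes (Ahrr, Cyp1a1, Cyp1b1 and Tiparp). These 10 genes were taken by symbol from a table of 54354 genes. The set was chosen by the Ido1 counts, which differed between the diets compared here, so the difference in Ido1 is described without a test, and the other 9 were picked for their roles. Of the 10, 8 had at least 1 count and 6 passed the filter on low counts, which kept 11780 genes in all. The RNA came from mouse colon tumor samples labelled as wild type and was sequenced after poly(A) selection with strand kept, on a serine-free control diet (SF_CD, 5 libraries) or a serine-free high fat diet (SF_HFD, 5 libraries), so that both groups lacked dietary serine. The extraction protocol names organoids, three-dimensional cultures of epithelial cells, whereas the design text speaks of sorted live cells and of sequencing single cells, and which of them applies is not clear from the labels. The title ends in a GFP tag that the labels do not explain, and no age, strain, or number of animals behind a library is given. The series also holds 8 libraries on control and high fat diets with serine, which are not used here: their row labels do not match their counts, with Actb, Gapdh, Eef1a1 and Epcam at 0 in all 8 and at no fewer than 106 counts in any serine-free library.

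Library totals ran from 499774 to 12841275. Under 1000000 counts were the SF_CD libraries 1 and 5 and the SF_HFD library 5, and the SF_CD libraries 1 and 5 also had 22.0% and 14.5% ribosomal RNA, against 2.08% to 7.19% in the other 8. Values are CPM, the counts scaled to a common library size after TMM normalization. In the 3 shallow libraries 3 counts correspond to 3.79 to 6.76 CPM, and in the other 7 to 0.226 to 0.691 CPM.

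Tryptophan is opened by Ido1, or by its relatives Ido2 and Tdo2, to formylkynurenine, which Afmid converts to kynurenine. Kmo, Kynu and Haao then carry kynurenine on towards quinolinic acid, from which NAD can be made, while the Kyat enzymes turn it into kynurenic acid. Kynurenine, and also some indoles, can bind AHR, a receptor that moves into the nucleus on binding its ligand. There AHR pairs with ARNT and activates genes such as Cyp1a1, Cyp1b1, Tiparp and Ahrr. In the gut, IDO1 is known as an enzyme induced by interferon gamma in immune and epithelial cells, and AHR as a sensor of dietary and microbial compounds.

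AHR and ARNT are known to read a short core, GCGTG, in the promoters of their targets. RefSeq promoter windows (GRCm38.p6, the 250 bases before the start of the gene) were at hand for 7 of the 10 genes, and GCGTG stood on either strand in 5 of them, against 28.2% of 32851 such windows of all genes. The windows of the 4 receptor targets are shown because these genes are the readout of AHR in the values that follow, with GCGTG, or its reverse complement CACGC, in capitals:
Cyp1a1 (chr9:57697363-57697612, plus strand): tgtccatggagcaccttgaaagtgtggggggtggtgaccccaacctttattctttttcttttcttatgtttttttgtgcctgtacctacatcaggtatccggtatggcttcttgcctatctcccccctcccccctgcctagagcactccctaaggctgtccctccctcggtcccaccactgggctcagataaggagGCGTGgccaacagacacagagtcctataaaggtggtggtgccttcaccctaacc
Cyp1b1 (chr17:79715062-79715311, minus strand): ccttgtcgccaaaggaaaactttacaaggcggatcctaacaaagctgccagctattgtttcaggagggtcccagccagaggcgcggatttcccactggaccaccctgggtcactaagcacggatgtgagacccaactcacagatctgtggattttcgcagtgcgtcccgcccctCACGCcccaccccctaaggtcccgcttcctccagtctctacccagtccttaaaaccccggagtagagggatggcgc
Ahrr (chr13:74292332-74292581, minus strand): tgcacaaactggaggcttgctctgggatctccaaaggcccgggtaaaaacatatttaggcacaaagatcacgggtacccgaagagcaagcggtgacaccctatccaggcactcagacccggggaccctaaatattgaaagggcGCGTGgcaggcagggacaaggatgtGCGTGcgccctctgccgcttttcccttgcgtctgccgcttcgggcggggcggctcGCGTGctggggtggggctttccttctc
Tiparp (chr3:65528197-65528446, plus strand): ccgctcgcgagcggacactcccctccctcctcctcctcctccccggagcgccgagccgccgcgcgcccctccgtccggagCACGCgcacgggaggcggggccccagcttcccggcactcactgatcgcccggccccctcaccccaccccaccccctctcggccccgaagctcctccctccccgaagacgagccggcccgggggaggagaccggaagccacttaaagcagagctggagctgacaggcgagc
Ahrr held 3 copies, Cyp1a1, Cyp1b1 and Tiparp 1 each, and the fifth gene with the core was Haao. The core lay 54 bases before the start in Cyp1a1 and 170 bases before it in Tiparp, counted from the first base of the match to the RefSeq start. The gene coordinates given with the values are from GENCODE, whose start differs: the RefSeq start lay 9685 bases inside the GENCODE gene for Cyp1a1 and 37 bases inside it for Tiparp, and was the same for Ahrr and Cyp1b1. None of the 7 windows held the gamma-activated site TTCNNNGAA (in 7.02% of all windows) or the interferon-stimulated response element (in 2.98%), both searched on both strands with overlaps between motifs allowed. Ido1, Kynu and Ahr had no window, so their promoters were not searched for any of these motifs. The matches found are matches of letters, which do not show binding.

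Ido1 (ENSMUSG00000031551, chr8:24584136-24597009, minus strand) was near absent in SF_CD and present in every SF_HFD library. In SF_CD it was at 2.31 CPM in library 2, at 0.140 CPM in library 3, where this is 1 count, and at 0 in libraries 1, 4 and 5. In SF_HFD it was at 13.8, 4.38, 23.0, 269.5 and 94.7 CPM in libraries 1 to 5. The 2 groups did not overlap, but the lowest SF_HFD library was only 1.89-fold above the highest SF_CD library. The share of non-overlapping genes in the whole tested table was 3.65%. As the libraries are bulk samples, a change in how many cells carry a transcript and a change in its amount per cell cannot be told apart.

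**Figure D1:**
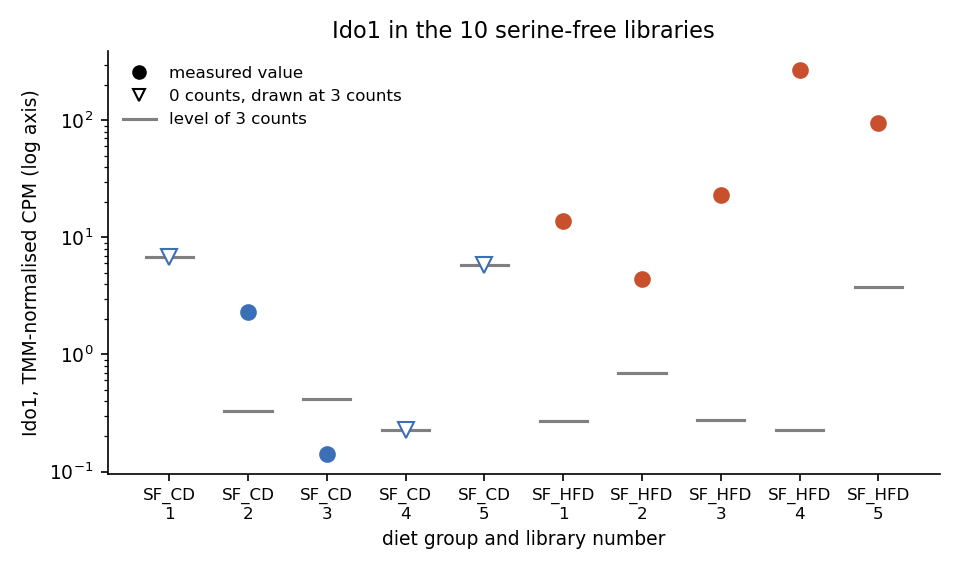
Ido1 in each of the 10 serine-free libraries, in CPM on a log axis, with a grey line at the level that 3 counts give in that library and open triangles for libraries with 0 counts. The SF_HFD libraries spread from 4.38 to 269.5 CPM, and the SF_CD libraries 1 and 5, with 0 counts, had levels of 3 counts at 6.76 and 5.84 CPM.

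The 0 counts differ in weight. In the SF_CD library 4, the deepest of all, 3 counts are 0.228 CPM, well under the lowest SF_HFD value. In the SF_CD libraries 1 and 5 the level of 3 counts, 6.76 and 5.84 CPM, lies above the 4.38 CPM of the SF_HFD library 2, so these libraries could not separate absence from the level seen there. Over the group, Ido1 had 22 counts in SF_CD, 21 of them in library 2, and 4067 in SF_HFD, of which 87.8% were in library 4.

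Ido1 was among the most variable genes within SF_HFD. Its mean was 81.1 ± 111 CPM (SD, n = 5) with a median of 23.0 CPM, and 34.0 CPM without library 4. The highest library was 61.6-fold above the lowest. The SD of its log2 CPM was 2.30, against a median of 0.52 over 10681 genes whose mean log2 CPM reached 1 in SF_HFD, and 63 of those genes had a larger SD. The fitted log2 fold change between the diets was 6.74, given without an error because Ido1 chose the set. Leaving out the SF_HFD library 4 gave 5.41, and leaving out the SF_CD library 2 gave 10.23, which leaves SF_CD with a single count and a value that depends on the prior count of the fit. Without the 3 shallow libraries it was 6.59.

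Ido2, a paralog of Ido1 that lies 7802 bases from it on the same strand, also had more counts in SF_HFD, at a level too low to be tested. It had 1 count in SF_CD and 20 in SF_HFD, a ratio of 15.1 (exact 95% interval 2.41 to 625, counting error only). In SF_HFD these were 4, 1, 5, 10 and 0 counts in libraries 1 to 5. The most counts again stood in library 4. None of the 1795 words of 31 bases in the annotated Ido1 transcripts occurs in another gene, Ido2 included. Tdo2, the tryptophan dioxygenase of the liver, had 0 counts in all 10 libraries.

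Of the 4 enzymes of the set after Ido1, only Afmid passed the filter on low counts. Afmid, the formamidase that releases kynurenine (chr11:117825924-117839908), was at 0, 2.53, 1.82, 0.379 and 7.79 CPM in the SF_CD libraries 1 to 5 and at 3.89, 4.15, 2.96, 0.981 and 16.4 CPM in the SF_HFD libraries 1 to 5. The highest value of each group came from a shallow library, on 4 and 13 counts, and the groups overlapped. Library 4 of SF_HFD, the highest for Ido1, was the lowest of its group for Afmid. The log2 fold change was 1.26 ± 0.88 (95% interval -0.60 to 3.13, edgeR adjusted p = 0.609). It was 0.54 without the SF_HFD library 5 alone. Without the shallow libraries it was 0.92, and the group means were 1.58 ± 1.10 CPM (n = 3) and 2.995 ± 1.44 CPM (n = 4). Of its 31-base words 43.2% also occur in other genes, so its estimated count is uncertain.

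Kmo, the hydroxylase that makes 3-hydroxykynurenine, and Kynu, the kynureninase, had 0 counts in all 10 libraries. Over the pooled libraries this allows at most 0.0989 CPM in SF_CD and 0.0746 CPM in SF_HFD for each. Haao, the dioxygenase that makes the precursor of quinolinic acid, had 2 counts in the SF_CD library 4 and 1 in the SF_HFD library 1. Transcripts of the steps between kynurenine and quinolinic acid were thus at or under the detection limit in both groups, also in the SF_HFD library 4, where Ido1 was highest. In the SF_HFD library 5, the next highest for Ido1, 3 counts are 3.79 CPM, so the 0 counts there say little.

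Ahr, the receptor (chr12:35497974-35535038), was detected in all 10 libraries. It was at 36.1, 8.82, 17.8, 9.41 and 3.89 CPM in the SF_CD libraries 1 to 5 and at 8.15, 21.2, 19.6, 31.3 and 36.6 CPM in the SF_HFD libraries. The groups overlapped, and the highest value of each came from a shallow library, on 16 and 29 counts. The log2 fold change was 0.68 ± 0.53 (95% interval -0.44 to 1.81, edgeR adjusted p = 0.660). Among the deep libraries the means were 12.0 ± 5.02 CPM (n = 3) and 20.1 ± 9.49 CPM (n = 4). Without the SF_CD library 1 the SF_CD mean was 9.98 CPM in place of 15.2 CPM.

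Among the 3 receptor targets of the set that were tested, Cyp1b1 had the largest fitted difference. This cytochrome P450 of steroid and xenobiotic oxidation (chr17:79701537-79715061) was at 2.25, 9.15, 9.11, 5.46 and 3.89 CPM in the SF_CD libraries 1 to 5. In SF_HFD it was at 20.9, 20.9 and 21.5 CPM in libraries 3, 4 and 5 and at 6.88 and 4.84 CPM in libraries 1 and 2. The SF_HFD libraries thus fell into 3 high and 2 low ones, the low ones within the SF_CD range, and the 3 high ones were also the 3 highest for Ido1. The log2 fold change was 1.14 ± 0.52, with an unadjusted p of 0.0412 and an edgeR adjusted p of 0.400 over all genes, so Cyp1b1 did not pass the test. Its adjusted p lay between 0.180 and 0.783 in 18 other settings, and its log2 fold change was 0.77 without the shallow libraries, which hold 1 of the 3 high values (on 17 counts) and the 2 lowest SF_CD values (on 1 and 2 counts).

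Cyp1a1, the P450 most often used as a readout of AHR (chr9:57687928-57703824), was low in both groups, at no more than 29 counts in any library. It was at 1.32, 0.981 and 2.20 CPM in the SF_CD libraries 2 to 4, at 0 in libraries 1 and 5, and at 1.18 to 1.84 CPM in SF_HFD. The SF_HFD library 4, highest for Ido1, was at 1.74 CPM, within the range of its group. The SF_HFD library 5 was at 1.26 CPM on 1 count, too few to place it. The log2 fold change was 0.20 ± 0.60 (95% interval -1.08 to 1.48, edgeR adjusted p = 0.941) and 0.0066 without the shallow libraries. Of its 31-base words 5.52% also occur in its relative Cyp1a2, which had 0 counts.

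Ahrr, the repressor that competes with AHR for ARNT (chr13:74211118-74292331), had too few counts for the test. It had 0, 5, 14, 2 and 0 counts in the SF_CD libraries 1 to 5 and 5, 6, 6, 3 and 3 in the SF_HFD libraries. Among the deep libraries this was 0.888 ± 0.951 CPM (n = 3) and 0.654 ± 0.505 CPM (n = 4), with overlapping groups.

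Tiparp, an ADP-ribosyltransferase that modifies AHR and limits its action (chr3:65528410-65555518), was the most abundant of the 4 targets of the set in both groups. It was at 122, 44.5, 66.6, 24.6 and 31.2 CPM in the SF_CD libraries 1 to 5 and at 40.1, 43.6, 53.4, 52.2 and 20.2 CPM in the SF_HFD libraries. The groups overlapped: 4 of the 5 SF_HFD values lay within the SF_CD range, and the SF_HFD library 5, on 16 counts, was the lowest of all. Its log2 fold change was -0.42 ± 0.44 (95% interval -1.34 to 0.51, edgeR adjusted p = 0.765). The sign rested on the SF_CD library 1, one of the 2 libraries with the most ribosomal RNA: without it the log2 fold change was 0.012, and without the 3 shallow libraries 0.066.

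**Figure D2:**
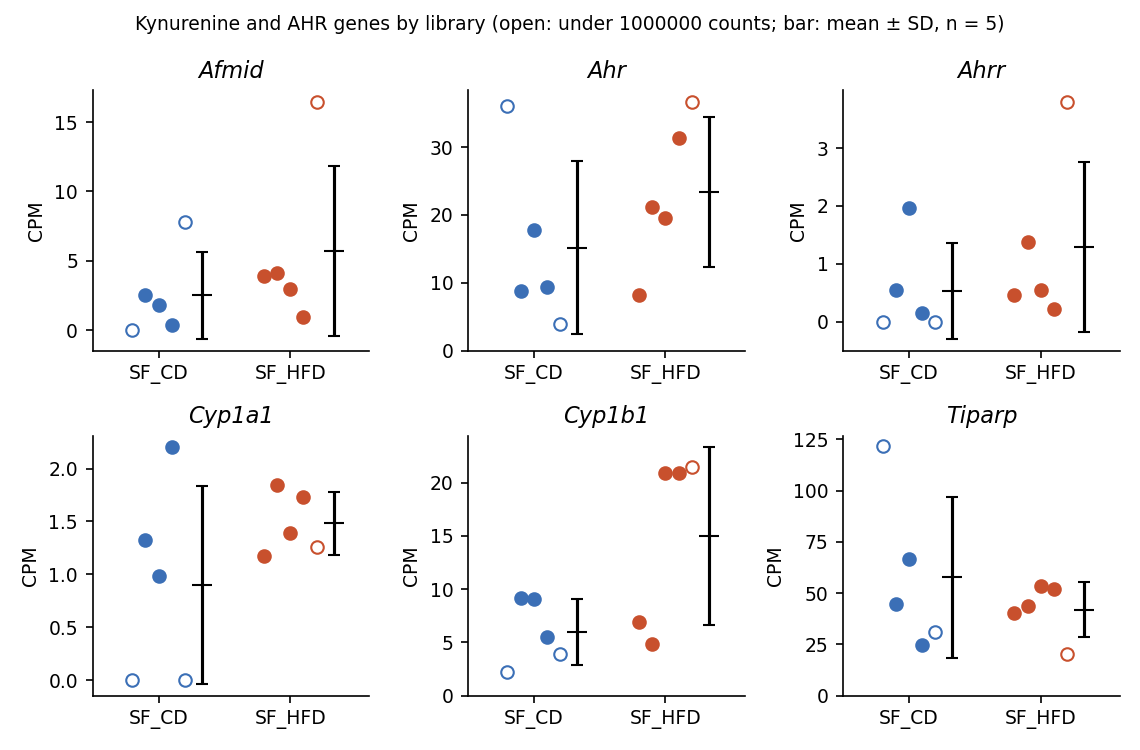
CPM of Afmid, Ahr, Ahrr, Cyp1a1, Cyp1b1 and Tiparp by diet group, 1 point per library (open points: libraries under 1000000 counts), with the mean ± SD of the 5 libraries beside them. All 6 genes overlap between the groups, and 3 SF_HFD libraries of Cyp1b1 sit near 21 CPM, above the highest SF_CD value of 9.15 CPM.

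Beside Ido1, 5 genes were tested and 0 passed edgeR's quasi-likelihood test at an adjusted p under 0.05, against 0.323% of all 11780 genes in either direction (0.153% higher and 0.17% lower in SF_HFD). At an unadjusted p under 0.05 there was 1, Cyp1b1, where 11.6% of all genes fell under that level. DESeq2 called 0 and limma-voom called 0 of them, against 371 of 13897 and 173 of 11780 genes over the whole table. On simulated data the edgeR test recovered 4% of 2-fold and 46.9% of 4-fold changes. The 0 calls here and in the lists below therefore do not show that changes of this size were absent. The 5 genes had a median log2 fold change of 0.68 and 4 were positive, beside a median of 0.02 and 51.4% positive over all genes.

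**Figure D3:**
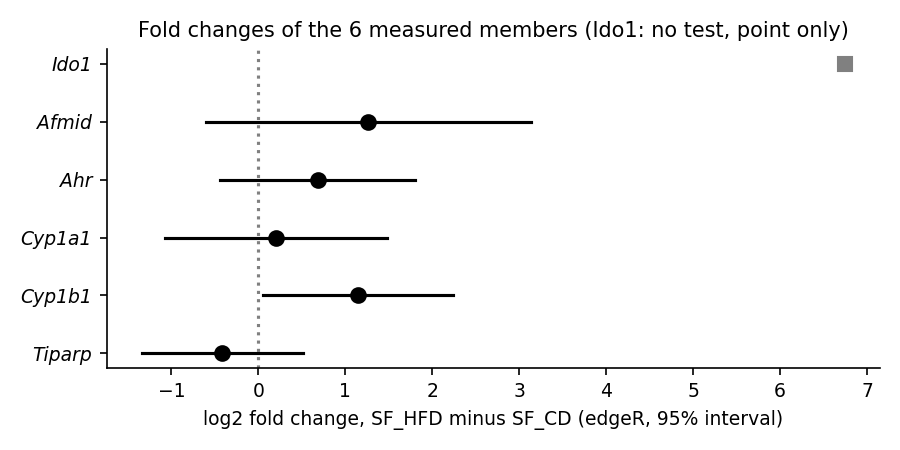
Log2 fold change of SF_HFD over SF_CD for the 6 genes that passed the low count filter, from edgeR, with 95% intervals not adjusted for multiple tests for the 5 that were tested. Ido1 is drawn as a point at 6.74 without an interval because it chose the set, and the other 5 lie between -0.42 and 1.26.

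Levels were compared between genes per kilobase of annotated exon. In SF_CD the order of mean CPM per kilobase was Tiparp (13.2 ± 8.9997), Ahr (2.47 ± 2.06), Cyp1b1 (1.02 ± 0.530), Afmid (0.708 ± 0.884), Cyp1a1 (0.323 ± 0.335), Ido1 (0.269 ± 0.559), Ahrr (0.0564 ± 0.0879) and Haao. Each gene overlapped its neighbour in this order across libraries. In SF_HFD Ido1 came first at 44.4 ± 60.9 CPM per kilobase, followed by Tiparp at 9.61 ± 3.06 and Ahr at 3.79 ± 1.80. Cyp1b1 (2.57 ± 1.43), Afmid (1.61 ± 1.73), Cyp1a1 (0.532 ± 0.105), Ahrr (0.136 ± 0.156) and Haao followed in CPM per kilobase, the same order as in SF_CD apart from Ido1. Ido1 and Tiparp overlapped across the SF_HFD libraries (2.40 to 148 against 4.64 to 12.2), and the only neighbours that did not overlap were Cyp1a1 with Ahrr and Ahrr with Haao.

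Other genes of tryptophan use did not pass the test. Of 14 further enzymes of tryptophan and kynurenine, 5 were tested and edgeR called 0 (1 at an unadjusted p under 0.05, 0 by DESeq2 and 0 by limma-voom), with a median log2 fold change of -0.89. Tph2, a tryptophan hydroxylase of serotonin synthesis, was the only one of the 5 whose groups did not overlap, at 1.68 to 24.7 CPM in SF_CD and 0 to 1.38 CPM in SF_HFD (log2 fold change -3.59 ± 0.92, edgeR adjusted p = 0.126), and 325 of its 362 SF_CD counts were in library 4. Got2, a mitochondrial transaminase that can also act on kynurenine, was at 88.0 ± 36.2 CPM on SF_HFD and 74.9 ± 26.3 CPM on SF_CD. Maoa, the monoamine oxidase that degrades serotonin, was at 20.7 ± 11.7 CPM against 38.3 ± 32.0 CPM. Kyat1 and Kyat3, which make kynurenic acid, were at 3.79 to 11.3 CPM and 2.11 to 5.05 CPM in SF_HFD, and overlapped the SF_CD values. Tdo2, Aadat and Qprt were at 0 in all 10 libraries.

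The lists for NAD synthesis (6 of 9 genes tested), for transport and charging of tryptophan (11 of 13 written) and for the response to amino acid shortage through GCN2 and ATF4 (9 of 10 written) likewise had 0 genes called by edgeR. At an unadjusted p under 0.05 they had 1, 3 and 0 genes, DESeq2 called 0, 1 and 0, and limma-voom called 0 in each. Their median log2 fold changes were -0.10, 0.31 and -0.04. Nampt, the first enzyme of NAD salvage, was at 71.4 ± 7.27 CPM on SF_HFD and 67.2 ± 31.7 CPM on SF_CD. Nadk, the NAD kinase, was at 52.4 ± 4.07 CPM against 22.9 ± 12.8 CPM in groups that did not overlap, with an edgeR adjusted p of 0.247. Slc3a2, the heavy chain of the transporter that carries tryptophan, was at 108 ± 21.8 CPM against 95.5 ± 19.9 CPM. Slc7a11, a cystine transporter that can also take up kynurenine, was at 169.7 ± 73.5 CPM against 274 ± 279 CPM, with the highest value, 728 CPM, in the SF_CD library 1. Asns and Atf4, markers of the amino acid response, were at 284 ± 90.6 and 71.5 ± 21.2 CPM in SF_HFD and at 214 ± 133 and 56.6 ± 8.45 CPM in SF_CD.

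Partners and further targets of AHR showed no common direction. Among the partners and chaperones 9 of 10 were tested, with 0 called by edgeR, 2 at an unadjusted p under 0.05 and 0 by DESeq2 and by limma-voom, and a median log2 fold change of 0.18. Hsp90ab1 and Hsp90aa1, chaperones that hold AHR in the cytosol, were at 1861 ± 661 and 728 ± 229 CPM in SF_HFD against 3349 ± 2001 and 1008 ± 528 CPM in SF_CD, where the shallow libraries 1 and 5 were highest for both. Of 16 other AHR targets 10 were tested, 5 with a positive fold change, and edgeR called 0 (5 at an unadjusted p under 0.05, 2 by DESeq2, 0 by limma-voom). Nfe2l2, which encodes the antioxidant factor NRF2, was at 94.5 ± 8.30 CPM on SF_HFD and 194 ± 46.1 CPM on SF_CD, and Rnf43, a ubiquitin ligase that limits Wnt receptors, at 48.2 ± 6.76 CPM against 80.0 ± 22.1 CPM. Both had groups that did not overlap, and neither passed the test (edgeR adjusted p = 0.186 and 0.386). Nqo1, a quinone reductase, was at 24.1 ± 14.7 CPM in SF_HFD against 12.3 ± 6.61 CPM (edgeR adjusted p = 0.425). The 5 targets at an unadjusted p under 0.05, beside 11.6% of all genes, were Nqo1, which was higher, and Nfe2l2, Rnf43, Serpinb2 and Aldh3a1, which were lower. Serpinb2 and Aldh3a1 had log2 fold changes of -2.45 ± 0.70 and -2.36 ± 0.86 in overlapping groups (edgeR adjusted p = 0.175 and 0.306). For Serpinb2 307 of 459 SF_CD counts were in library 3, and for Aldh3a1 237 of 260 in library 4.

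Interferon genes, which are known to control Ido1, had fold changes of both signs. Of 36 genes 24 were tested, 9 had a positive log2 fold change with a median of -0.20, and edgeR called 0 (4 at an unadjusted p under 0.05, 0 by DESeq2 and 0 by limma-voom). Their summed level was 333 to 660 CPM in SF_CD and 307 to 411 CPM in SF_HFD. Ifng, interferon gamma itself, had 0 counts in all 10 libraries. Jak1 and Stat3, a kinase and a transcription factor of cytokine signalling, were at 45.1 ± 12.7 and 35.5 ± 14.7 CPM in SF_HFD and at 53.1 ± 40.9 and 54.3 ± 44.1 CPM in SF_CD. Irf1, a transcription factor induced by interferon gamma, was at 21.7 ± 11.0 CPM in SF_HFD against 27.0 ± 11.5 CPM in SF_CD. In the SF_HFD library 4, where Ido1 was at 269.5 CPM, Irf1 was at 25.2 CPM. Cd274, the checkpoint ligand PD-L1, was at 0.362, 0.922, 2.31, 10.4 and 6.32 CPM in the SF_HFD libraries 1 to 5 and at 0 to 1.95 CPM in SF_CD, with its 2 highest values in the libraries that were also highest for Ido1 (edgeR adjusted p = 0.399).

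Among the 6 genes whose log2 CPM was most like that of Ido1 across the 10 libraries were Tmsb10, Rhbdf1, Tnfsf13, Plpp2 and Fbxl5, out of 10522 candidates. Pearson's r was 0.92 for Tmsb10, an actin-binding thymosin, 0.92 for Rhbdf1, an inactive rhomboid protein, 0.90 for Tnfsf13, the cytokine APRIL, 0.90 for Plpp2, a lipid phosphatase, and 0.89 for Fbxl5, an iron-sensing ubiquitin ligase subunit. These values are a description of 10 points that share their diet groups and depth. The genes were picked for their likeness to Ido1 in these same libraries, so their likeness within the groups follows in part from that choice. With the group means taken out, r of these 5 was between 0.52 for Plpp2 and 0.78 for Tnfsf13. Tnfsf13 was at 4.62, 2.30, 9.53, 23.3 and 8.84 CPM in the SF_HFD libraries 1 to 5. It was at 7.603 CPM in the SF_CD library 2, the SF_CD library with the most Ido1. Its highest and lowest SF_HFD libraries were those of Ido1, a likeness for which the gene was picked. Among the other genes of the set, Cyp1b1 had an r of 0.82 with Ido1 and 0.76 with the group means taken out, and 49 of the 10522 candidates had a higher r than Cyp1b1. For Cyp1a1, Ahr, Afmid and Tiparp r was 0.52, 0.47, 0.40 and -0.23, and 0.21, 0.24, 0.031 and -0.092 with the group means taken out.

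**Figure D4:**
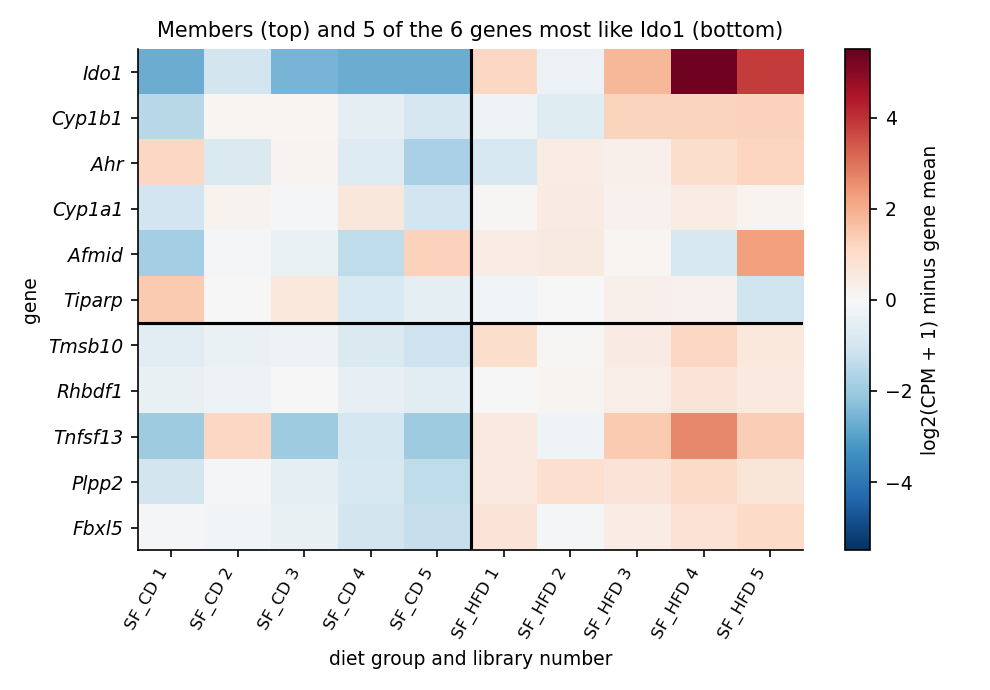
Log2(CPM + 1) minus the mean of each gene, by library, for Ido1 and the 5 other tested genes of the set (above the line) and for 5 of the 6 genes most like Ido1 (below it). The SF_HFD libraries 3, 4 and 5 are high for both Ido1 and Cyp1b1, and Tiparp is highest in the SF_CD library 1.

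Epithelial markers were abundant in every library. The listed markers of dendritic cells and of T and NK cells were at or near 0, apart from Fscn1, H2-Ab1, Trbc1 and Gzma. Of the epithelial markers, all 12 were tested and edgeR called 0 (6 at an unadjusted p under 0.05, 1 by DESeq2, 0 by limma-voom). Over all genes 11.6% were at an unadjusted p under 0.05. The log2 fold change was positive for 10 of the 12, with a median of 0.71, and negative for Elf3 (-0.80) and Vil1 (-0.03). Krt8 (0.97) and Cldn3 (0.73) had groups that did not overlap. The epithelial list summed to 2880 to 7043 CPM in SF_CD and 5839 to 8608 CPM in SF_HFD. In SF_CD and SF_HFD, Krt19 was at 1648 ± 975 CPM and 2307 ± 497 CPM and Krt7 at 901 ± 545 CPM and 1299.8 ± 352 CPM. Of 13 dendritic cell markers 3 were at 0 in all libraries (Clec9a, Siglech and Cd209a), and Flt3 and Itgax were at 0 in all SF_HFD libraries. The summed level of the dendritic list was 2.25 to 18.4 CPM in SF_CD and 2.87 to 16.4 CPM in SF_HFD, mostly from Fscn1 (5.02 ± 4.31 CPM in SF_HFD) and H2-Ab1 (3.01 ± 1.77 CPM), and 0 of the 2 tested were called by edgeR, also at an unadjusted p under 0.05, by DESeq2 or by limma-voom. The macrophage and monocyte list summed to 52.2 to 127 CPM in SF_CD and 69.8 to 101 CPM in SF_HFD, with Cd14, Cd68 and Lyz2 the most abundant in SF_CD. Of its 5 tested genes edgeR called 1 (3 at an unadjusted p under 0.05, 3 by DESeq2, 2 by limma-voom). This was Fcer1g, an immunoglobulin receptor chain, which fell from 2.57 ± 1.87 CPM to a single count in SF_HFD (log2 fold change -5.63, edgeR adjusted p = 0.00826). Fcer1g missed the threshold without the SF_HFD library 1 (log2 fold change -5.35, edgeR adjusted p = 0.0524), without the SF_HFD library 4 (-6.75 and 0.0854) and without the 3 shallow libraries (-5.42 and 0.0845). Lyz2, a lysozyme of myeloid cells, was at 15.6 to 79.8 CPM in SF_CD and 0.691 to 15.2 CPM in SF_HFD, in groups that did not overlap (edgeR adjusted p = 0.0760). The macrophage genes Tyrobp, C1qa and C1qb had 28, 21 and 31 counts in SF_CD and 0 in SF_HFD, too few to be tested. Not all of this list fell: 2 of its 5 tested genes, Mrc1 and Cd14, had positive log2 fold changes (2.55 and 0.74). Neither passed the test (edgeR adjusted p = 0.327 and 0.569), and both overlapped between the groups. Mrc1 had 23 counts in SF_CD and 141 in SF_HFD, 60 of them in library 2. Fcer1g, Lyz2 and Cd68 had negative fold changes. Ptprc, the pan-leukocyte gene, was at 0 to 1.28 CPM in SF_HFD, with the most in library 4. Among T and NK cell markers 6 of 12 were at 0 in all libraries, Cd3e, Cd4 and Cd8a among them. Their sum, 18.03 to 370 CPM in SF_CD and 32.0 to 298 CPM in SF_HFD, came mostly from Trbc1, a T cell receptor chain. Trbc1 was at 12.0 to 369 CPM in SF_CD and 32.0 to 298 CPM in SF_HFD (edgeR adjusted p = 0.997). Gzma had too few counts to be tested, with 80 in SF_CD and 3 in SF_HFD. Of the SF_CD counts 78 were in library 4, at 5.92 CPM, and Gzma was at most at 0.277 CPM in SF_HFD.

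Of the 9 Paneth cell markers, Lyz1 and the defensins were at or near 0 in both groups, and edgeR called 0 of 3 tested (3 at an unadjusted p under 0.05, 1 by DESeq2, 0 by limma-voom). The list summed to 54.4 to 107 CPM in SF_CD and 41.8 to 282 CPM in SF_HFD. Its most abundant gene, the matrix protease Mmp7, was at 27.1, 57.6, 158, 238 and 275 CPM in the SF_HFD libraries 1 to 5 and at 29.7 to 50.6 CPM in SF_CD (log2 fold change 1.96 ± 0.53, edgeR adjusted p = 0.147). The 3 libraries with the most Mmp7 were those with the most Ido1 and Cyp1b1. Pla2g2a, a secreted phospholipase, was at 6.63 ± 3.91 CPM on SF_HFD and 16.8 ± 6.58 CPM on SF_CD.

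Markers of stroma differed between the groups in another way. Of 7 smooth muscle genes tested edgeR called 3, all higher in SF_HFD (Myl9, Actg2 and Acta2), and of 6 fibroblast genes 1, Postn. All 7 smooth muscle genes had groups that did not overlap, with 7 at an unadjusted p under 0.05, 5 called by DESeq2 and 7 by limma-voom, and for the fibroblast list these counts were 1, 4, 1 and 4. Over all genes edgeR called 0.323%, 3.65% did not overlap and 11.6% were at an unadjusted p under 0.05. DESeq2 called 371 of 13897 and limma-voom 173 of 11780. In the fibroblast list Col3a1 and Lum had log2 fold changes of 0.0053 and 0.16. Those of Col1a1, Col1a2 and Dcn were 2.28, 1.96 and 1.89. The smooth muscle list summed to 2.94 to 24.8 CPM in SF_CD and 171 to 264 CPM in SF_HFD, and the fibroblast list to 12.4 to 95.4 CPM and 70.7 to 136 CPM. Within SF_HFD, Myl9 was at 37.2 to 56.8 CPM and Postn at 6.32 to 8.60 CPM, a narrow range beside the 61.6-fold range of Ido1 in the same libraries. Without the 3 shallow libraries edgeR still called Myl9 and Postn, but no longer Actg2 and Acta2 (adjusted p = 0.159 and 0.0701), whose log2 fold changes were then 4.25 and 4.08 against 4.47 and 3.97 with all libraries. Actg2 was also lost without the SF_CD library 1 or the SF_HFD library 2 or 5 (edgeR adjusted p = 0.0582, 0.0564 and 0.0532). Endothelial markers summed to 8.15 to 33.8 CPM and 4.61 to 20.2 CPM in SF_CD and SF_HFD, with Pecam1 and Egfl7 the most abundant and 0 of 2 tested called by edgeR, at an unadjusted p under 0.05, by DESeq2 or by limma-voom. The part of these cell markers in the difference of Ido1 was not tested.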

How the data were processed

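Per the labels' protocols, poly(A) RNA was made into strand-specific libraries. Estimated counts per gene were deposited by the authors as whole numbers in 1 table. Salmon 1.3.0 and mm10 are named in the submitters' processing notes. The annotation used for counting is not given in the sources used here. Columns were matched to samples by library name, and no column was left unmatched. Nothing in the labels ties libraries to separate animals or cultures, and p-values therefore reflect only library-to-library spread, possibly technical. Identical columns were not found.

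The genes and lists were chosen with earlier results of these data known. Differences were tested in the 10 serine-free libraries with edgeR 4.0.16 (R 4.3.3, quasi-likelihood, robust, TMM, filterByExpr) and Benjamini-Hochberg adjustment over 11780 genes, with a threshold of 0.05. The standard error is the absolute log2 fold change over the root of F. Log2 CPM used a prior count of 2. Named genes were the set itself, up to 4 called genes of each list or else its 2 most abundant, and the 6 genes most like Ido1 whose mean log2 CPM reached 1, of which 1 is not reported here. Ido2, Tdo2, Tph2, Kyat1, Kyat3, Aadat, Qprt, Nadk, Nqo1, Serpinb2, Aldh3a1, Irf1, Ifng, Cd274 and markers named beside those the rule gives were chosen after their values were seen. Wars1 is not a symbol of this table, and Ddit3 stood on 2 rows and was left out. Coordinates, exon lengths and 31-base words are from GENCODE M21 (GRCm38). Tried as alternatives were upper quartile and RLE scaling, no filter and another filter (CPM of at least 1 in 5 libraries, 11986 genes kept). The others were DESeq2 1.42.0, limma-voom (limma 3.58.1), a replicate block, leaving out each library and leaving out the 3 shallow ones. The edgeR test was also tried on simulated data with known changes placed in genes with many counts. It recovered 4% of 2-fold, 46.9% of 4-fold, 91.8% of 8-fold and 100% of 16-fold changes, with 3 false calls. Intervals of fold changes come from the edgeR fit, and the interval of Ido2 and the levels of 3 counts cover counting error only.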

Additional observations from a re-analysis of the deposited data

Results flagged for a closer look

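In 12 groups of 5 libraries (6 genes, 2 diets), a library far from the rest of its group was found in 2, by a gap above 0.71 of the range. This limit is passed by about 1 in 20 groups of normally distributed values. Low counts are not distributed in that way, so the 2 cannot be set against that rate. Ido1 was at 2.31 CPM in the SF_CD library 2, on 21 counts, and the next SF_CD value was 0.140 CPM. Afmid was at 16.4 CPM in the SF_HFD library 5, on 13 counts in a library under 1000000 counts, and the next SF_HFD value was 4.15 CPM. The SF_HFD library 4, which held most of the Ido1 counts, did not stand apart by this measure because the SF_HFD library 5 was also high.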

How the results depend on the processing

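The count of genes called over the whole table was 38 and depended on the setting. It was 78 with no filter, 371 with DESeq2, 173 with limma-voom and 16 to 88 when 1 library was left out. With the replicate block it was 22. The count of called genes of the set other than Ido1 was 0 in these and in all other settings, 0 to 0 with 1 library left out. Afmid, Ahr, Cyp1a1 and Cyp1b1 kept a positive log2 fold change and stayed short of the threshold in all 18 settings. Tiparp changed sign with limma-voom (0.0034), without the 3 libraries under 1000000 counts (0.066) and within the range of -0.64 to 0.012 with 1 library left out. The log2 fold change of Ido1 stayed positive, between 5.41 and 10.23. The replicate numbers of the labels did not pair the libraries: the deviations of same-numbered libraries correlated at -0.21 to 0.14, and 1 of 5 SF_CD libraries was most like the SF_HFD library of its own number. Depth limits Ahrr, Haao, Ido2 and the 0 counts of the 3 shallow libraries most.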
